A study of Capra hircus with 20 samples.

Results

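Goat intramuscular preadipocytes (IMPA), harvested on day 0, were compared with intramuscular adipocytes (IMA), harvested after 3 days in induction medium. All cells were released with collagenase from the longissimus dorsi, the long muscle of the back, of male Jianzhou Daer goats aged 7 days, and were used at passage 3. No sorting step is described for these cultures, so other cells of the muscle could have been carried along. The cultures grew in DMEM/F12 with fetal bovine serum, and the induction medium contained oleic acid, a monounsaturated fatty acid, besides the serum. The comparison rests on 10 of the 20 libraries of the series, with 5 IMPA and 5 IMA libraries. The other 10 libraries came from subcutaneous preadipocytes (SPA) and subcutaneous adipocytes (SA) of the same goats, at the same stages, and they serve here only to show where the intramuscular change differed. The study used 5 goats, but the sources used here do not tie a library to a goat, so the p values measure the spread between these samples.

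The values are FPKM, fragments scaled to transcript length and to the mapped reads of the library, in strand-specific libraries of total RNA. FPKM values of the mRNA transcripts were summed per gene symbol, and 11382 of 20587 genes averaged 1 FPKM or more in these 10 libraries and were tested. Each lncRNA transcript was tested by itself, and 1755 of 13612 passed the same minimum. Changes are differences of log2(FPKM + 1), IMA minus IMPA, so 1 is a doubling for an abundant gene and understates the fold of a gene near 0. A gene is said to have risen or fallen where its adjusted p was under 0.05 in limma, a linear model that shares variance between genes.

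Intramuscular preadipocytes are fibroblast-like cells that lie between the muscle fibres and can store triglyceride. PPARG and CEBPA are the transcription factors that drive the adipocyte programme, which ends with lipid droplet coats such as PLIN1, the fatty acid binding protein FABP4 and the hormones adiponectin and leptin. Long-chain fatty acids also bind peroxisome proliferator-activated receptors directly and switch on a small set of genes for burning and storing them, in many cell types. Muscle cultures hold in addition satellite cell derived myoblasts, which leave the cell cycle, fuse and assemble sarcomeres under the control of MYOD1, MYOG, MYF6 and MEF2C.

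The adipocyte label was checked against markers first. In both groups the adipocyte-defining genes were near the floor of the tables: 0.475 and 0.364 FPKM on average in IMPA and IMA for PPARG, 0.197 and 0.214 FPKM for ADIPOQ (adiponectin), 0.154 and 0.154 FPKM for LEP (leptin), and 0.258 and 0.276 FPKM for PLIN1. PLIN4, CIDEC, LIPE, DGAT2 and CFD also stayed under 1 FPKM in each of the 10 libraries, LPL lay between 0.764 and 1.36 FPKM, and FABP4 was not analysed here. DLK1, which encodes the preadipocyte marker Pref-1, averaged 0.0114 and 0.0316 FPKM. The myogenic regulator MYOG, in contrast, was at 649 ± 66.9 FPKM (SD, n = 5) in IMPA and 736 ± 35.00 FPKM in IMA, and PAX7, the satellite cell factor, at 12.3 ± 2.13 and 13.3 ± 1.55 FPKM. The late adipocyte transcripts named here were therefore near the floor in the libraries labelled adipocyte, and libraries of both stages held abundant myogenic transcripts. Of the 32 listed adipocyte genes in the tables, 15 did average 1 FPKM or more, among them CEBPA, CEBPD and CIDEA, as given below. The study itself reports lipid droplets by Oil Red O staining and a lower Pref-1 mRNA level after 3 days. Of the 10 endothelial markers measured, 9 were under 1 FPKM, as were 10 of 11 immune markers, all 3 erythroid markers, 5 of 8 Schwann cell markers, 3 of 8 pericyte markers and 5 of 8 epithelial markers. Of single markers among these, PTPRC (leukocytes) was at 0 in each IMA library. PECAM1 (endothelium), RGS5 (pericytes), SOX10 (Schwann cells) and EPCAM (epithelium) were at 0.124 FPKM or less in every library. Other members of these lists were present. The Schwann cell markers summed to 56.81 to 62.35 FPKM in IMPA and 52.39 to 59.99 FPKM in IMA. For pericyte markers the sums were 28.92 to 39.72 and 34.2 to 37.13 FPKM, and for epithelial markers 29.36 to 34.16 and 34.94 to 42.47 FPKM. The part of such cells was not tested.

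Some measures of the libraries moved with the groups. By the study's sequencing statistics, the GC content of the reads was higher in each IMPA library than in every IMA, SPA and SA library. GC content was not entered in any fit, and it too cannot be told apart from the stage here. By the study's alignment table, the mapped share of the reads was higher in each IMPA library than in each IMA library, so this share and the stage cannot be told apart. Entered as a covariate, it made the median SE of the mRNA genes 3.52 times as large, and 629 mRNA genes passed, against 6764 without it. Of the 204 genes and lncRNAs named here, 189 had passed without it. With it, 67 of these passed with the same sign, 80 kept their sign without passing and 42 changed sign. IMA3 had the highest mapped share among the IMA libraries and stood nearest to IMPA: for 356 of the 11382 genes its gap to the next IMA library was over 0.71 of the range of the group, and in 82.9% of these it lay on the side of IMPA. The other 9 libraries were set apart in this way for 67 to 225 genes. IMPA5 had the highest mapped share of all and stood apart for inflammatory genes, which are given with and without it. A newly assembled antisense lncRNA, LNC_010228, took 26.5 to 28.0% of the FPKM of the IMPA libraries and 19.95 to 26.9% of that of the IMA libraries, and the FPKM of the mRNA genes summed to 380563 to 390965 in IMPA and 393017 to 399780 in IMA.

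The comparison held many small changes and few large ones. Of the 11382 mRNA genes, 2254 rose (19.8%) and 4510 fell (39.6%), and the median change of all mRNA genes was -0.086. Of the 6764 genes that passed, 78.7% had changed by less than 0.5. A change of at least 1 was reached by 233 genes that rose (2.05%) and 46 that fell (0.404%). The groups did not overlap for 1662 genes higher in IMA (14.6%) and 3349 lower (29.4%). These are the shares against which the counts of each gene list below are to be read, since a list in which 19.8% of the genes rose and 39.6% fell is at the level of all genes. In bulk samples, fewer cells of a type and less RNA per cell cannot be told apart. Of the 233 genes that rose by at least 1, 162 also passed with the mapped share as a covariate and 219 kept their sign, and of the 46 that fell, 10 passed and 42 kept their sign.

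**Figure D1:**
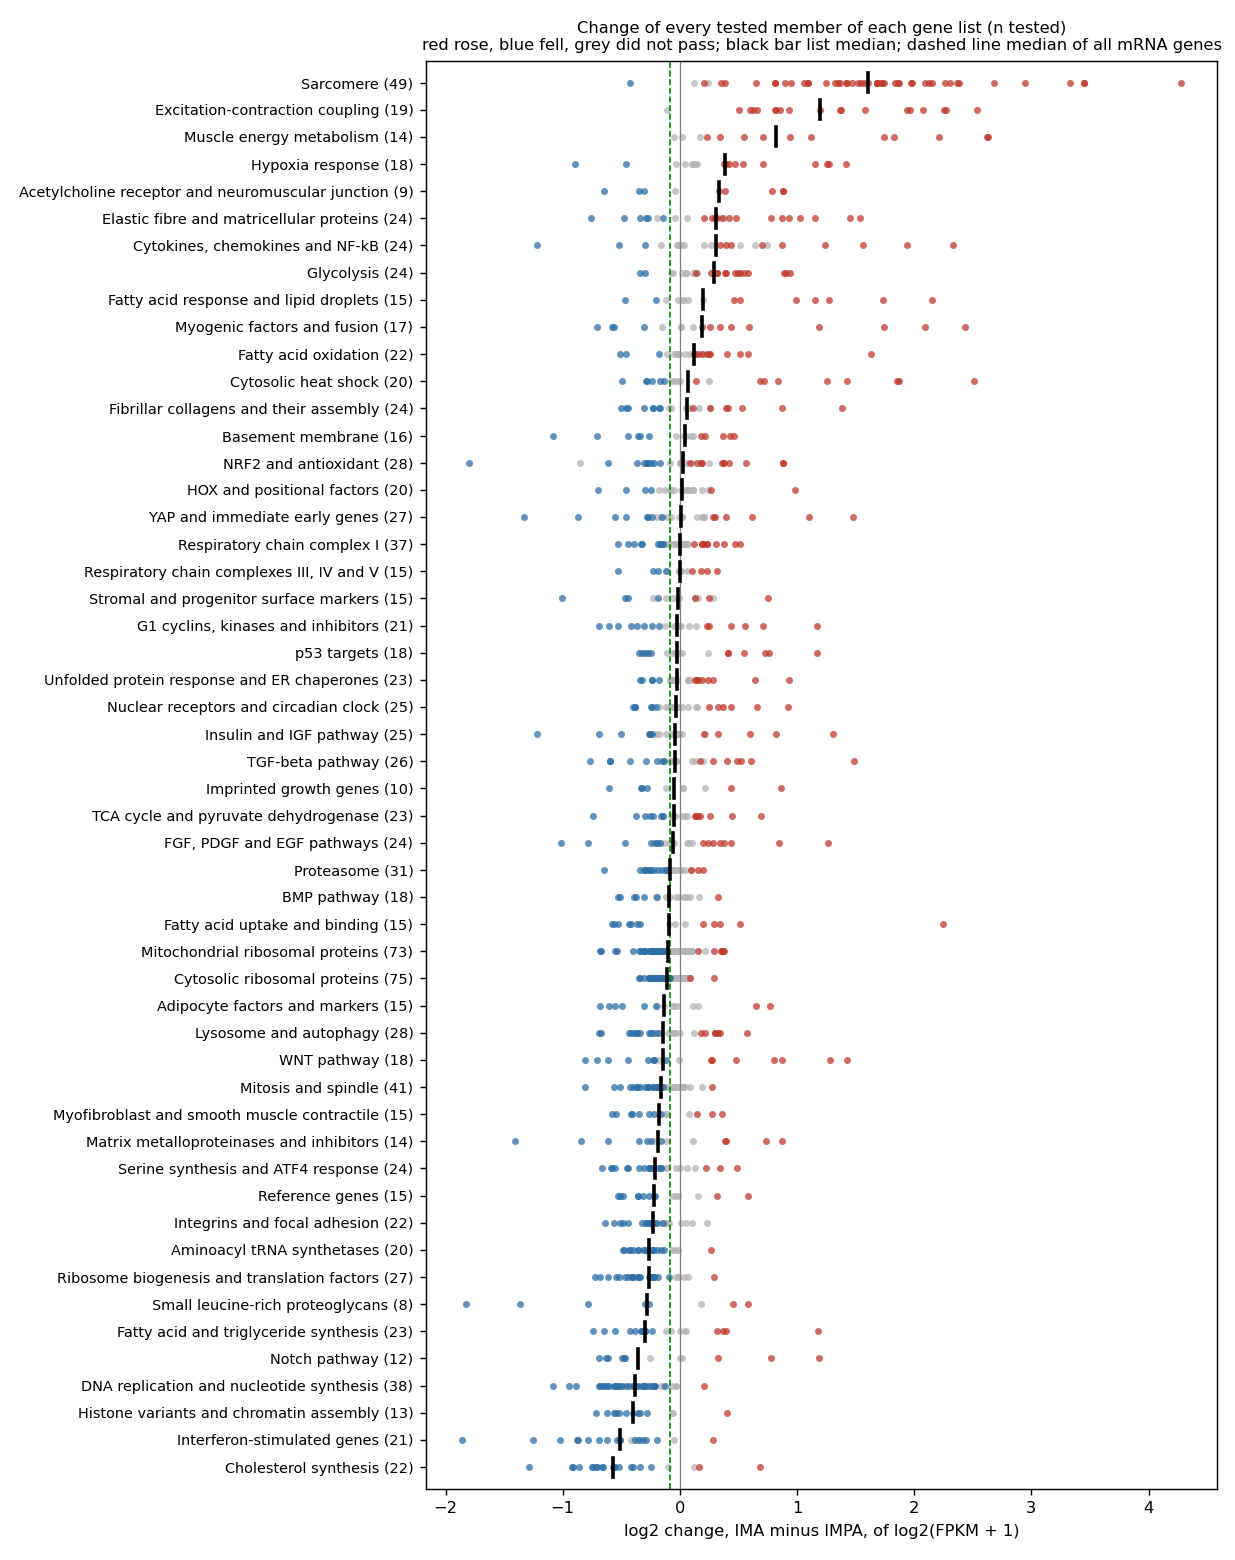
Log2 change (IMA minus IMPA, of log2(FPKM + 1), x axis) of each tested member of 52 gene lists with at least 8 tested members, ordered by their medians (black bars). Sarcomere and excitation-contraction coupling genes lie far to the right, with medians of 1.61 and 1.20, and cholesterol synthesis and interferon-stimulated genes lie at the bottom, with medians of -0.57 and -0.51, beside -0.086 for all mRNA genes (dashed line).

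Skeletal muscle genes rose most. In the sarcomere list 46 of 49 tested members rose and 1 fell, with a median log2 change of 1.61. Outside the contractile filaments, in the list of excitation-contraction coupling, the release and re-uptake of calcium that turns an action potential into a contraction, 18 of 19 tested members rose and 0 fell, with a median log2 change of 1.20. CASQ1, the calcium-binding protein of the fast-fibre sarcoplasmic reticulum, was at 4.14, 4.14, 4.95, 4.89 and 4.03 FPKM in IMPA1 to IMPA5 and 29.3, 32.1, 26.1, 33.4 and 31.9 FPKM in IMA1 to IMA5. The groups were far apart, and the change was 2.54 (SE 0.074, adjusted p = 5.85e-10). TRDN (triadin) and CASQ2, which sit with it at the release site, changed by 2.27 and 2.25, and SLN (sarcolipin), an inhibitor of the calcium pump, by 2.08. The release channel RYR1, the voltage sensor CACNA1S and the calcium pump ATP2A1 rose from lower levels, by 0.50, 0.66 and 1.58. In the fit with the mapped share, 37 sarcomere and 14 coupling genes still rose. For RYR1 the most abundant transcript alone changed by 0.32 (SE 0.40, adjusted p = 0.548).

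The muscle energy list followed the same direction, and 11 of 14 tested members rose and 0 fell, with a median log2 change of 0.82. AMPD1, the AMP deaminase of muscle, was at 1.73, 1.67, 1.62, 1.75 and 1.73 FPKM in IMPA1 to IMPA5 and 14.8, 16.2, 15.3, 15.9 and 16.3 FPKM in IMA1 to IMA5, with no overlap. MB (myoglobin), which stores oxygen, rose by 2.62 (SE 0.069, adjusted p = 2.41e-10), PGAM2, the muscle phosphoglycerate mutase, by 2.21 (SE 0.053, adjusted p = 1.28e-10) and ENO3, the muscle enolase, by 1.83 (SE 0.054, adjusted p = 6.08e-10).

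Myogenic transcription factors did not move as a block. In their list 9 of 17 tested members rose and 4 fell, with a median log2 change of 0.18. MEF2C, which activates late muscle genes, was at 11.7, 13.1, 13.4, 13.2 and 13.9 FPKM in IMPA1 to IMPA5 and 68.1, 79.02, 73.4, 75.1 and 78.3 FPKM in IMA1 to IMA5 and rose by 2.43 (SE 0.053, adjusted p = 5.61e-11). MYF6 (MRF4), the regulator that appears last in the series, was at 3.84, 3.79, 4.13, 4.504 and 3.74 FPKM in IMPA1 to IMPA5 and 21.5, 20.8, 18.1, 19.2 and 22.02 FPKM in IMA1 to IMA5 and rose by 2.09 (SE 0.062, adjusted p = 6.75e-10). Neither gene showed any overlap between the groups. MYOD1, the determination factor that precedes them, was at 40.8, 44.5, 44.8, 41.6 and 44.1 FPKM in IMPA1 to IMPA5 and 23.2, 25.6, 24.6, 28.02 and 29.3 FPKM in IMA1 to IMA5 and fell by 0.71 (SE 0.061, adjusted p = 3.43e-06), also without overlap. MYF5 changed by 0.43 and TMEM8C, which encodes the fusion protein myomaker, by 0.35, whereas PAX7 changed by 0.11 (SE 0.11, adjusted p = 0.402) and did not pass. MYOG changed by 0.18 (SE 0.065, adjusted p = 0.0313), and this call was lost with all 4 groups in the fit (adjusted p = 0.198), with quantile normalization (adjusted p = 0.176), with no filter on low values (adjusted p = 0.08302) and without IMA3, IMA4, IMA5, IMPA1, IMPA2 or IMPA4, with adjusted p from 0.0513 to 0.0722. For TMEM8C the most abundant transcript alone did not pass (adjusted p = 0.1197). CKM, the muscle creatine kinase, rose by 1.74 and HES6, which promotes myogenic differentiation, by 1.19.

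At the nerve contact, 5 of 9 tested members rose and 3 fell, with a median log2 change of 0.33. The acetylcholine receptor subunit genes CHRNG (0.88), CHRND (0.88) and CHRNA1 (0.78) rose, as did MUSK (0.33), the kinase that clusters the receptor. LRP4, the agrin receptor that acts through MUSK, fell from 14.04 ± 0.742 to 8.63 ± 0.694 FPKM.

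Beyond the muscle lists, the 10 genes that rose most among those without overlap between the groups were MRLN (3.40), FHL1 (3.16), CTXN3 (2.96), DHRS7C (2.91), ATP1B4 (2.86), S100A2 (2.85), APOBEC2 (2.75), GJD4 (2.53), HSPB3 (2.51) and CA3 (2.43). Several of them are known from muscle as well. MRLN encodes myoregulin, a micropeptide that inhibits the calcium pump, and was at 1.55, 0.727, 0.539, 2.42 and 1.46 FPKM in IMPA1 to IMPA5 and 20.04, 21.4, 22.4, 27.1 and 22.8 FPKM in IMA1 to IMA5. FHL1, a LIM protein of muscle, went from 15.9 ± 3.31 to 148 ± 14.2 FPKM (SD, n = 5). APOBEC2, a muscle member of the cytidine deaminase family, went from 2.04 ± 0.258 to 19.5 ± 2.07 FPKM, and CA3, the carbonic anhydrase of slow muscle and fat, from 6.63 ± 0.661 to 40.96 ± 9.62 FPKM. CA3 was lowest in IMA3, at 24.4 FPKM against 41.9 to 48.7 in the other IMA libraries. With the mapped share as a covariate CA3 changed by 1.17 (SE 0.44, adjusted p = 0.167) and did not pass. S100A2, a calcium-binding protein better known from epithelia, was the most abundant of the 10, at 138, 173, 156, 171 and 163 FPKM in IMPA1 to IMPA5 and 1105, 1130.3, 1152, 1174 and 1247 FPKM in IMA1 to IMA5. In the subcutaneous cells 9 of the 10 were under 1 FPKM on average at both stages, and S100A2 changed by -1.03 there.

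**Figure D2:**
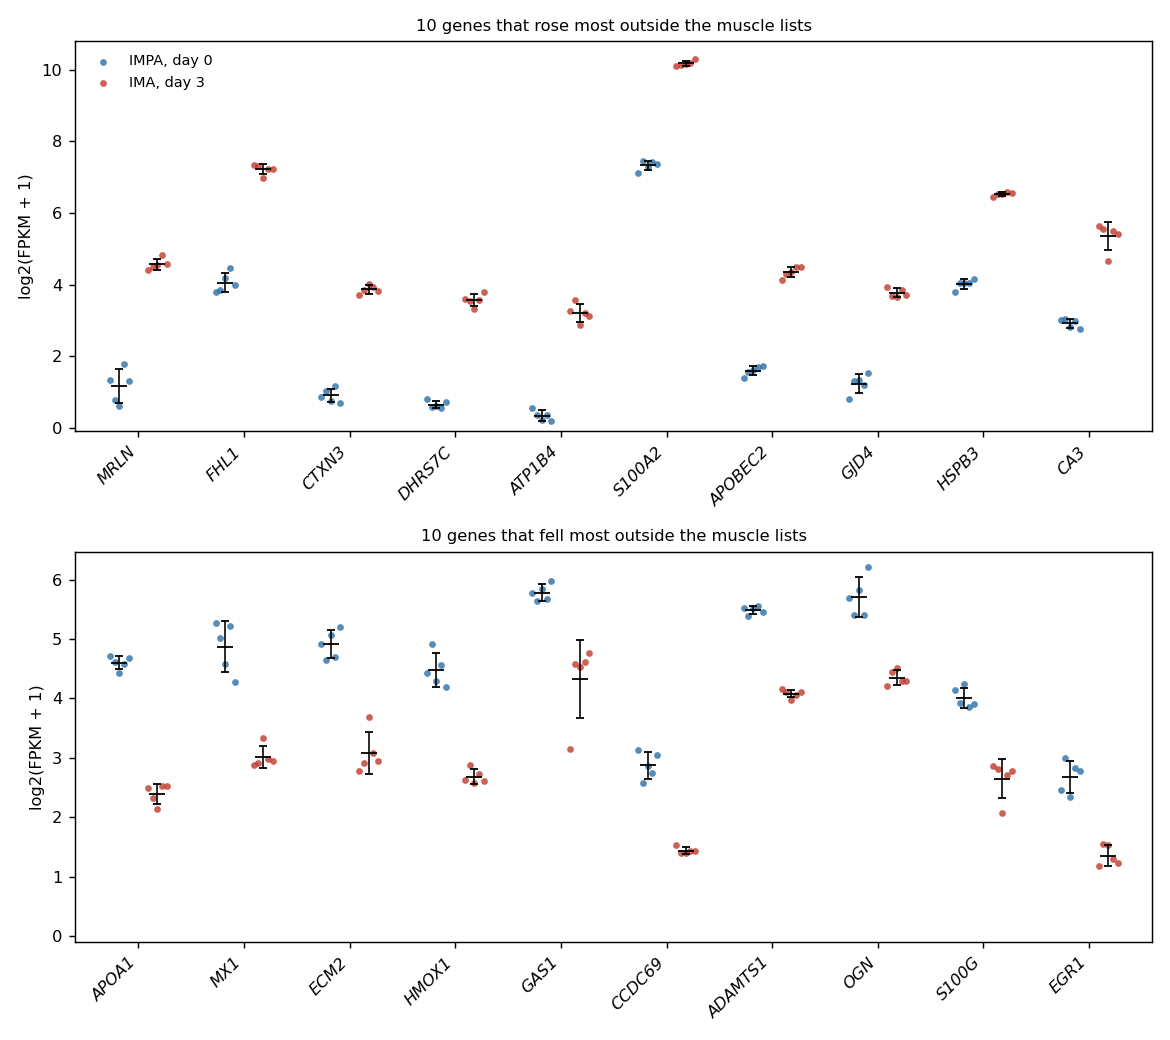
Levels as log2(FPKM + 1) (y axis) of the 10 genes that rose most and the 10 that fell most outside the muscle lists, in each IMPA (blue) and IMA (red) library, with the mean and SD of 5 libraries. Genes without overlap were chosen, and GAS1 in IMA1, at 7.87 FPKM, lies well below the other IMA libraries.

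The heat shock list was mixed, and several small heat shock protein genes in it rose. Among cytosolic heat shock genes 9 of 20 tested members rose and 6 fell, with a median log2 change of 0.071. HSPB3, found in differentiating muscle, was at 12.9, 15.5, 15.4, 15.6 and 16.96 FPKM in IMPA1 to IMPA5 and 86.3, 91.8, 91.7, 95.9 and 92.3 FPKM in IMA1 to IMA5. It was followed by HSPB7 (5.46 ± 0.413 to 22.7 ± 2.11 FPKM), CRYAB (233 ± 17.03 to 843 ± 58.7 FPKM), the desmin chaperone alpha-B crystallin, HSPB2 (23.7 ± 2.66 to 65.2 ± 3.21 FPKM) and HSPB1 (17.7 ± 2.13 to 43.5 ± 5.54 FPKM). Of the 9 members that rose, 7 are small heat shock protein genes. These were not a preset list, and their share that rose is not set against that of all genes. With the mapped share as a covariate 6 members of the heat shock list rose and 0 fell. DNAJA1, a co-chaperone of HSP70, fell from 113 ± 6.38 to 79.8 ± 4.34 FPKM.

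Several genes that answer to fatty acids rose. Of the fatty acid response and lipid droplet list 7 of 15 tested members rose and 2 fell, with a median log2 change of 0.20, and 4 of the 15 rose by at least 1. PDK4, the kinase that shuts pyruvate dehydrogenase when fat is burned, was at 1.28, 1.74, 1.01, 1.57 and 1.03 FPKM in IMPA1 to IMPA5 and 8.39, 10.1, 8.596, 9.94 and 9.28 FPKM in IMA1 to IMA5. Each IMA library was above each IMPA library, and the change was 2.15 (SE 0.093, adjusted p = 1.28e-08). PLIN2, the lipid droplet coat of cells other than mature adipocytes, was at 51.8, 67.3, 41.2, 53.9 and 34.9 FPKM in IMPA1 to IMPA5 and 188, 178, 128, 170.3 and 165 FPKM in IMA1 to IMA5, a change of 1.74 (SE 0.16, adjusted p = 5.54e-06). HILPDA, an inhibitor of triglyceride breakdown that hypoxia also induces, rose from 6.56 ± 1.79 to 16.9 ± 0.645 FPKM, and ANGPTL4, a secreted inhibitor of lipoprotein lipase, from 21.4 ± 6.51 to 47.4 ± 4.505 FPKM. G0S2, which restrains the lipase ATGL, rose by 0.99 (SE 0.16, adjusted p = 3.85e-04), but its most abundant transcript alone did not pass (adjusted p = 0.07902). CPT1A, the hepatic type of the mitochondrial import enzyme, changed by 0.20 (SE 0.092, adjusted p = 0.0825) and did not pass. RXRA, the partner receptor of the peroxisome proliferator-activated receptors, fell from 6.16 ± 0.3898 to 4.18 ± 0.315 FPKM. PPARG itself was not tested because of its level, and PPARA and PPARD, the genes of its relatives, averaged under 1 FPKM in both groups as well. When the mapped share was a covariate, 1 member of the list rose and 1 fell, and the changes were 1.29 (SE 0.21, adjusted p = 0.00783) for PDK4 and 0.035 (SE 0.24, adjusted p = 0.956) for PLIN2.

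CD36, the fatty acid translocase of muscle and fat, was at 0.193, 0.204, 0.235, 0.158 and 0.4697 FPKM in IMPA1 to IMPA5 and 4.48, 5.45, 4.91, 4.97 and 4.75 FPKM in IMA1 to IMA5, a change of 2.24 (SE 0.076, adjusted p = 1.90e-09), and of 2.50 (SE 0.27, adjusted p = 9.25e-04) with the mapped share as a covariate. Before induction CD36 was thus hardly present, and IMPA5 was the highest of the IMPA libraries. In the uptake and binding list 5 of 15 tested members rose and 7 fell, with a median log2 change of -0.094, and in the fit with the mapped share 2 rose and 0 fell. FABP3, the heart and muscle fatty acid binding protein, rose from 76.6 ± 9.49 to 109.5 ± 7.86 FPKM, and FABP5, the epidermal form, fell from 19.9 ± 2.64 to 12.9 ± 0.207 FPKM. ACSL5, an acyl-CoA synthetase, fell by 0.56, but its most abundant transcript alone changed by -0.41 (SE 0.37, adjusted p = 0.406). Among the genes of fatty acid oxidation 11 of 22 tested members rose and 3 fell, with a median log2 change of 0.12, and in the fit with the mapped share 1 rose and 0 fell. CPT1B, the muscle type of the import enzyme, was at 1.001, 1.15, 1.23, 1.24 and 1.35 FPKM in IMPA1 to IMPA5 and 5.62, 5.39, 5.54, 6.41 and 6.11 FPKM in IMA1 to IMA5, so that the groups stood apart. ECI1, which handles unsaturated bonds such as that of oleic acid, rose by 0.58 (SE 0.087, adjusted p = 1.98e-04). ECHS1, the short-chain hydratase, went against the list and fell from 71.1 ± 4.39 to 49.6 ± 2.32 FPKM.

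In the list of adipocyte factors and markers 15 of 32 genes in the tables passed the minimum level. Of these, 2 rose and 6 fell, with a median of -0.13. ACSL1, the acyl-CoA synthetase of fat and muscle, rose from 4.68 ± 0.2402 to 8.699 ± 0.921 FPKM. CIDEA, a lipid droplet protein, was at 29.5, 20.5, 29.9, 31.6 and 27.7 FPKM in IMPA1 to IMPA5 and 59.9, 44.3, 35.8, 38.5 and 43.6 FPKM in IMA1 to IMA5, a change of 0.65 (SE 0.14, adjusted p = 0.00227), but its most abundant transcript alone changed by 0.40 (SE 0.21, adjusted p = 0.1501), and its call was lost with all 4 groups in the fit (adjusted p = 0.106). CEBPA fell from 9.23 ± 0.428 to 5.42 ± 0.628 FPKM, EBF1, an early adipocyte factor, from 3.696 ± 0.342 to 2.21 ± 0.345 FPKM, CEBPD from 229 ± 54.03 to 158 ± 14.1 FPKM and the imprinted gene MEST, which tracks fat mass, from 35.96 ± 4.78 to 23.99 ± 7.78 FPKM. CEBPB changed by -0.20 (SE 0.090, adjusted p = 0.0832) and PNPLA2, the gene of the lipase ATGL, by -0.050 (SE 0.080, adjusted p = 0.615), and neither passed.

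**Figure D3:**
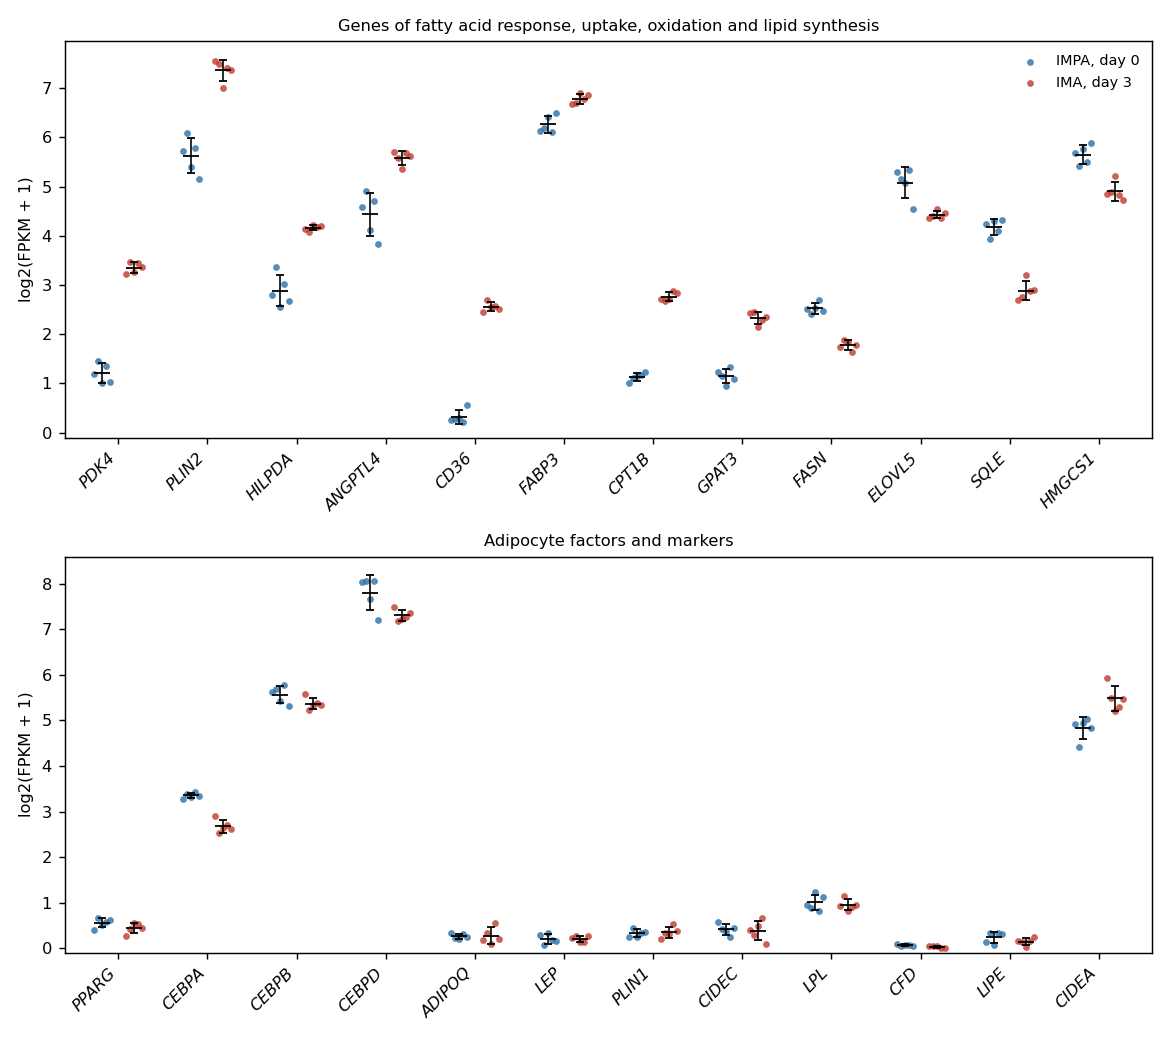
Levels as log2(FPKM + 1) (y axis) of lipid genes (upper panel) and adipocyte factors and markers (lower panel) in each IMPA (blue) and IMA (red) library, with the mean and SD of 5 libraries. PDK4, PLIN2, CD36 and CPT1B are higher in every IMA library, FASN and SQLE lower, and PPARG, ADIPOQ, LEP, PLIN1 and CIDEC stay under 1 FPKM in both groups.

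Genes of lipid synthesis fell, most of all those of cholesterol. In the cholesterol list 2 of 22 tested members rose and 18 fell, with a median log2 change of -0.57, the lowest median of all lists. SQLE (squalene epoxidase), which opens the sterol branch, was at 17.8, 14.2, 18.7, 16.1 and 18.9 FPKM in IMPA1 to IMPA5 and 5.46, 5.799, 8.201, 6.36 and 6.504 FPKM in IMA1 to IMA5. The groups were separate, and the change was -1.28 (SE 0.10, adjusted p = 1.58e-06). EBP (-0.92), LSS (-0.91) and MSMO1 (-0.86), later enzymes of the same branch, fell too, as did HMGCS1 from 49.6 ± 6.86 to 29.1 ± 4.195 FPKM at the entry of the pathway. SREBF2, the transcription factor that governs the pathway, fell from 6.11 ± 0.338 to 3.35 ± 0.477 FPKM. TM7SF2, a sterol reductase, went the other way and rose from 7.53 ± 1.32 to 12.6 ± 0.876 FPKM. IMA3 was the highest of the IMA libraries for LSS and MSMO1, and without it 2 members rose and 18 fell, as with it. Adding the mapped share as a covariate left 2 members that rose, 0 that fell and a median of 0.065. MSMO1 was also not called from its most abundant transcript alone, with an adjusted p of 0.581.

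Among the genes of fatty acid and triglyceride synthesis 4 of 23 tested members rose and 14 fell, with a median log2 change of -0.30. FASN (fatty acid synthase) was at 4.73, 4.34, 4.78, 5.51 and 4.52 FPKM in IMPA1 to IMPA5 and 2.36, 2.71, 2.57, 2.13 and 2.45 FPKM in IMA1 to IMA5, lower in each IMA library, with a change of -0.75 (SE 0.065, adjusted p = 3.72e-06). ELOVL5, which elongates polyunsaturated fatty acids, fell from 33.5 ± 6.67 to 20.6 ± 1.17 FPKM, SCD (stearoyl-CoA desaturase, which makes oleic acid) from 9.55 ± 0.733 to 7.44 ± 0.628 FPKM and FADS1 from 26.1 ± 2.599 to 20.9 ± 1.104 FPKM. ACACA (acetyl-CoA carboxylase) changed by -0.12 (SE 0.056, adjusted p = 0.1002) and FADS2 by 0.047 (SE 0.13, adjusted p = 0.776), so that neither passed. GPAT3, an acyltransferase that starts triglyceride assembly, was the largest exception, with a rise from 1.23 ± 0.222 to 4.05 ± 0.422 FPKM. After adding the mapped share as a covariate, 1 member rose and 1 fell.

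Glycolytic and hypoxia-inducible genes shifted upwards. In the glycolysis list 14 of 24 tested members rose and 2 fell, with a median log2 change of 0.29. PFKM, the muscle phosphofructokinase and a member of the muscle list too, rose from 7.27 ± 0.462 to 14.8 ± 1.01 FPKM, SLC16A3, the lactate exporter, from 8.82 ± 2.35 to 17.2 ± 3.17 FPKM, the glucose transporter SLC2A3 from 51.8 ± 5.96 to 98.5 ± 22.2 FPKM and PGK1 from 231 ± 13.05 to 346 ± 13.8 FPKM. LDH-A, the symbol used in the tables for the lactate dehydrogenase A gene, rose by 0.51 (SE 0.075, adjusted p = 1.51e-04) and GAPDH by 0.32 (SE 0.058, adjusted p = 7.70e-04), a gene with many processed copies in mammalian genomes that can share its reads. PKM, whose products include the pyruvate kinase of proliferating cells, went against the list and fell from 559 ± 20.7 to 442 ± 17.5 FPKM. In the hypoxia list 10 of 18 tested members rose and 2 fell, with a median log2 change of 0.39. EGLN3, the oxygen-sensing prolyl hydroxylase that is itself a target of the hypoxia factors, was at 5.48, 8.65, 4.45, 7.21 and 4.41 FPKM in IMPA1 to IMPA5 and 17.2, 18.4, 15.6, 18.3 and 16.9 FPKM in IMA1 to IMA5, and ANKRD37 went from 4.67 ± 0.853 to 12.7 ± 2.79 FPKM. VEGFA, the vascular growth factor, changed by 0.54 (SE 0.15, adjusted p = 0.008501), with overlap, and its most abundant transcript alone did not pass (adjusted p = 0.0641). ADM (adrenomedullin), a target of the same factors, fell from 235 ± 33.2 to 127 ± 23.3 FPKM. IMA3 was the lowest IMA library for SLC16A3, SLC2A3, GAPDH, PKM and ADM, and without it 15 glycolysis genes rose and 2 fell. With the mapped share as a covariate the medians of both lists were below 0, at -0.21 and -0.20, 0 glycolysis genes passed in either direction, and 0 hypoxia genes rose while 4 fell. The tricarboxylic acid cycle was split, with 7 of 23 genes up and 7 down, and IDH3A, a subunit of isocitrate dehydrogenase, rose by 0.70. For complex I of the respiratory chain, 10 of 37 genes rose and 9 fell, with a median of 0.0046. Of complexes III to V, 15 listed genes, all of the ATP synthase, were in the tables, and 4 rose and 4 fell.

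Genes of DNA replication fell, while 4 of the 6 listed genes of cyclin-dependent kinase inhibitors rose. In the replication list 1 of 38 tested members rose and 32 fell, with a median log2 change of -0.39. MCM5, a subunit of the replicative helicase, was at 14.5, 13.2, 14.97, 12.5 and 14.7 FPKM in IMPA1 to IMPA5 and 6.27, 4.67, 7.53, 5.98 and 6.05 FPKM in IMA1 to IMA5, lower in each IMA library, with a change of -1.09 (SE 0.093, adjusted p = 3.32e-06). MCM2 (-0.95), MCM4 (-0.89) and MCM3 (-0.69), of the same ring, fell with it, as did the sliding clamp PCNA from 31.7 ± 1.73 to 19.8 ± 2.12 FPKM, RRM2, a subunit of ribonucleotide reductase, from 33.7 ± 1.92 to 21.8 ± 3.73 FPKM and TYMS, which makes thymidylate, from 27.4 ± 3.08 to 20.8 ± 2.62 FPKM. Genes of mitosis moved less, and 1 of 41 tested members rose and 20 fell, with a median log2 change of -0.16. SPC24, a kinetochore subunit, fell from 29.9 ± 2.67 to 16.7 ± 2.29 FPKM and the proliferation marker MKI67 by 0.40, whereas CDK1 changed by 0.087 (SE 0.058, adjusted p = 0.222) and TOP2A by 0.047 (SE 0.076, adjusted p = 0.618), so that neither of these 2 passed. For MKI67 the most abundant transcript alone changed by -0.61 (SE 0.27, adjusted p = 0.0899) and did not pass. In the list of histone variants and chromatin assembly 1 of 13 tested members rose and 10 fell, with a median log2 change of -0.40, led by UHRF1 (7.802 ± 0.365 to 4.38 ± 0.418 FPKM), which maintains DNA methylation after replication. Among the G1 regulators 6 rose and 8 fell. CDKN1A, the gene of the inhibitor p21, was at 49.2, 56.8, 51.3, 53.9 and 54.8 FPKM in IMPA1 to IMPA5 and 116, 126, 109, 128 and 126 FPKM in IMA1 to IMA5, a change of 1.17 (SE 0.053, adjusted p = 1.98e-08). CDKN2B (p15) rose from 15.8 ± 1.36 to 26.4 ± 2.59 FPKM and CDKN1C (p57) from 339.6 ± 32.7 to 459.5 ± 27.3 FPKM, whereas E2F1, the S-phase transcription factor, fell from 3.63 ± 0.242 to 1.88 ± 0.219 FPKM and CCND1 (cyclin D1) from 57.3 ± 5.25 to 44.6 ± 6.21 FPKM. The p53 targets as a list were split, with 6 up and 5 down of 18, and besides CDKN1A they were led by GADD45A (0.76) and GDF15 (0.72). Given the mapped share as a covariate, 0 replication genes rose and 1 fell, and the median was -0.15.

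Protein synthesis genes fell by small amounts. Of 27 ribosome biogenesis and translation factors 1 rose and 20 fell, with a median of -0.26, led by NOP56 (63.2 ± 4.17 to 37.8 ± 2.37 FPKM), a core protein of the particles that modify ribosomal RNA. Of 20 aminoacyl tRNA synthetases 1 rose and 16 fell (-0.26), and of 75 cytosolic ribosomal proteins 2 rose and 44 fell (-0.11), although ribosomal protein genes have many processed copies too. The median of the ribosomal proteins was close to that of all mRNA genes (-0.086), and 30 to 46 of them fell under the alternatives other than the mapped share. With the mapped share as a covariate, none of the 27 factors, the 20 synthetases or the 75 ribosomal proteins passed. For serine synthesis and the ATF4 response 3 of 24 tested members rose and 15 fell, with a median log2 change of -0.21, with PSAT1 (-0.66) and PHGDH (-0.55), enzymes of serine synthesis, in front. The chaperones of the endoplasmic reticulum were divided, with 8 of 23 up and 5 down, and ERO1A, the oxidase that drives disulfide formation, rose from 20.8 ± 4.301 to 40.03 ± 2.55 FPKM. HMOX1 (heme oxygenase 1) fell from 21.7 ± 4.702 to 5.45 ± 0.563 FPKM, and FTL, the ferritin light chain, rose from 391.99 ± 83.7 to 714 ± 92.7 FPKM. Both belong to the antioxidant list, in which 10 of 28 members rose and 10 fell.

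Interferon-stimulated genes were lower in IMA. In their list 1 of 21 tested members rose and 16 fell, with a median log2 change of -0.51. MX1, an antiviral GTPase, was at 37.6, 31.3, 22.9, 36.4 and 18.4 FPKM in IMPA1 to IMPA5 and 6.39, 6.54, 9.12, 6.88 and 6.75 FPKM in IMA1 to IMA5, and the groups did not overlap. The change was -1.86 (SE 0.18, adjusted p = 7.97e-06). ISG15, a ubiquitin-like protein, was at 11.4, 9.86, 5.86, 11.5 and 3.48 FPKM in IMPA1 to IMPA5 and 2.68, 2.42, 3.58, 1.68 and 3.41 FPKM in IMA1 to IMA5, and IMPA5, at 3.48 FPKM, lay below the highest IMA library. DDX58, the gene of the RNA sensor RIG-I, fell from 8.96 ± 2.31 to 3.79 ± 0.415 FPKM and PSMB8, an immunoproteasome subunit, from 7.41 ± 1.87 to 3.502 ± 0.426 FPKM. IFIT2 rose, from 3.15 ± 0.415 to 4.04 ± 0.448 FPKM. Without IMPA5, 18 members fell and the median was -0.58. With the mapped share as a covariate 1 fell, and the median was -1.13.

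Cytokine genes moved in both directions, and part of their changes rested on IMPA5. In the list of cytokines, chemokines and NF-kB 9 of 24 tested members rose and 3 fell, with a median log2 change of 0.31. Without IMPA5, 8 rose, 5 fell and the median was -0.11. CXCL8, a chemokine for neutrophils, was at 72.7, 85.8, 30.3, 80.1 and 2.68 FPKM in IMPA1 to IMPA5 and 163, 149, 102, 149 and 131 FPKM in IMA1 to IMA5. Its change was 1.94 (SE 0.74, adjusted p = 0.0418) with all 10 libraries and 1.12 (SE 0.27, adjusted p = 0.00515) without IMPA5. The call with 10 libraries was lost without IMA1, IMA2, IMA3, IMA4, IMA5 or IMPA3, with adjusted p from 0.0539 to 0.0765. It was also lost with the most abundant transcript alone (adjusted p = 0.0668), a minimum of 0.1 FPKM (adjusted p = 0.0616) and no filter on low values (adjusted p = 0.105). CCL5 was at 7.12, 15.7, 3.95, 10.2 and 0.239 FPKM in IMPA1 to IMPA5 and 29.5, 30.3, 40.6, 26.4 and 26.4 FPKM in IMA1 to IMA5, and its change went from 2.33 to 1.75 (SE 0.29, adjusted p = 4.89e-04) without IMPA5. The groups did not overlap for either chemokine. IL1A rose from 3.196 ± 1.56 to 10.5 ± 0.919 FPKM, and IL11, a cytokine of stromal cells, from 7.805 ± 2.52 to 19.1 ± 2.46 FPKM. CXCL12, which holds progenitors in their niche, was at 17.99, 21.00, 10.6, 25.8 and 8.33 FPKM in IMPA1 to IMPA5 and 6.38, 6.75, 6.09, 5.53 and 5.65 FPKM in IMA1 to IMA5 and fell by 1.22 (SE 0.25, adjusted p = 0.00146). With the mapped share as a covariate, 0 members of the list rose and 5 fell. Among the immune cell markers CD14, a gene that fibroblasts express as well, was the only one to reach 1 FPKM and rose, and the 11 markers summed to 5.62 to 9.42 FPKM in IMPA and 11.2 to 13.7 FPKM in IMA. The part of immune cells in these results was not tested.

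IMPA5 was far below the other IMPA libraries in CCL20, at 206, 103, 105, 156 and 3.81 FPKM in IMPA1 to IMPA5 and 118, 117, 139, 109 and 105 FPKM in IMA1 to IMA5. IL6 was at 88.6, 76.6, 38.2, 81.7 and 11.6 FPKM in IMPA1 to IMPA5 and 73.5, 79.8, 85.5, 71.7 and 67.5 FPKM in IMA1 to IMA5, and SOD2, a mitochondrial enzyme that NF-kB induces, at 338, 211, 157, 324 and 29.8 FPKM in IMPA1 to IMPA5 and 91.3, 86.1, 109, 82.97 and 79.3 FPKM in IMA1 to IMA5. In these 3 genes IMPA5 was below every other library of the comparison, and IMPA3 was the next lowest IMPA library for IL6 and SOD2. None of the 3 passed with all 10 libraries, but SOD2 changed by -1.45 (SE 0.20, adjusted p = 1.87e-04) without IMPA5. The call of SOD2 as a fall thus depended on leaving out IMPA5, which lay below every IMA library. CCL20 and SOD2 were chosen after their values were seen.

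**Figure D4:**
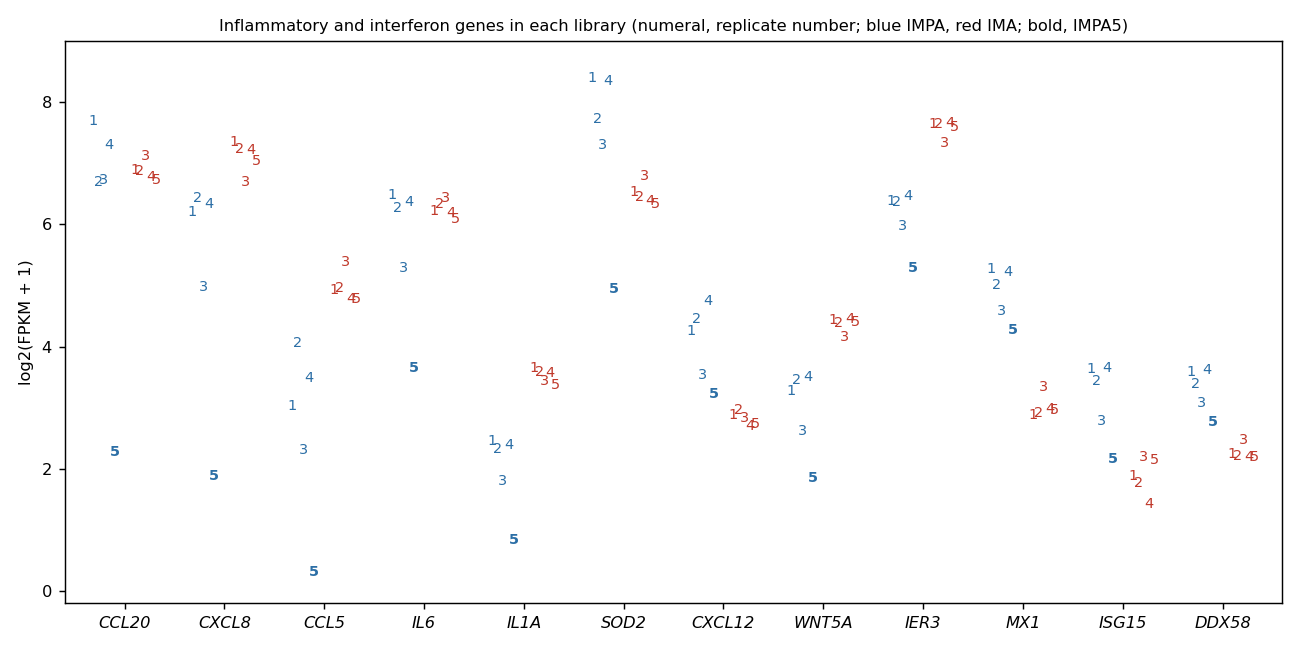
Levels as log2(FPKM + 1) (y axis) of 12 inflammatory, secreted and interferon genes, with each library drawn as its replicate number, IMPA in blue and IMA in red. IMPA5 (bold) is the lowest IMPA library in all 12, and for CCL20 it lies at 3.81 FPKM against 103 to 206 in the other IMPA libraries.

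Matrix genes moved in both directions. For elastic fibre and matricellular proteins 14 of 24 tested members rose and 6 fell, with a median log2 change of 0.31. The fit with the mapped share left 5 that rose and 0 that fell. FN1 (fibronectin) was at 245, 299, 242, 334 and 233 FPKM in IMPA1 to IMPA5 and 675, 778, 804, 847 and 803 FPKM in IMA1 to IMA5, a change of 1.54 (SE 0.10, adjusted p = 3.93e-07) with no overlap. MFAP2, a microfibril glycoprotein, rose from 6.18 ± 1.001 to 18.5 ± 1.495 FPKM, and TNC (tenascin C) from 36.1 ± 6.49 to 80.8 ± 6.19 FPKM. POSTN (periostin) went from 31.9 ± 1.23 to 66.1 ± 4.901 FPKM, SPP1 (osteopontin) from 41.2 ± 5.601 to 79.2 ± 8.07 FPKM and TGFBI from 149 ± 5.96 to 256 ± 3.16 FPKM. ELN (elastin) changed by 0.42 (SE 0.11, adjusted p = 0.00797) with overlap. THBS1 (thrombospondin 1) went against the list, from 289 ± 29.9 to 171 ± 18.3 FPKM. The small leucine-rich proteoglycans, which coat collagen fibrils, mostly fell. ECM2 was at 29.4, 24.2, 32.5, 24.98 and 36.01 FPKM in IMPA1 to IMPA5 and 5.88, 6.505, 11.9, 7.48 and 6.74 FPKM in IMA1 to IMA5, a change of -1.83 (SE 0.16, adjusted p = 4.43e-06), and OGN (osteoglycin) at 50.8, 41.4, 56.02, 41.6 and 73.4 FPKM in IMPA1 to IMPA5 and 17.4, 20.9, 21.8, 18.5 and 18.7 FPKM in IMA1 to IMA5. ASPN (asporin) fell from 9.25 ± 2.699 to 4.83 ± 0.838 FPKM. DCN (decorin) changed by -0.30 (SE 0.10, adjusted p = 0.0286) and lost its call with no filter on low values, with rescaling to genes outside the muscle lists and without IMA3, IMPA1, IMPA2 or IMPA4, with adjusted p from 0.0512 to 0.06497. LUM (lumican) changed by 0.18 (SE 0.13, adjusted p = 0.263) and did not pass, and BGN (biglycan) rose by 0.58 (SE 0.12, adjusted p = 0.00204). With the mapped share as a covariate ECM2 changed by -0.21 (SE 0.33, adjusted p = 0.775), OGN by -0.12 (SE 0.33, adjusted p = 0.877) and ASPN by 0.88 (SE 0.27, adjusted p = 0.101).

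The fibrillar collagens did not shift together, with 7 of 24 genes of the collagens and their assembly up and 8 down. COL5A3, a minor chain of type V, rose from 5.28 ± 1.399 to 15.1 ± 1.11 FPKM and PLOD2, the lysyl hydroxylase that sets cross-links, from 58.4 ± 2.58 to 108 ± 7.93 FPKM. COL5A2 rose by 0.53 (SE 0.033, adjusted p = 2.61e-07). COL3A1, by far the most abundant of these, changed by 0.26 (SE 0.11, adjusted p = 0.0669) and did not pass. It passed as a rise with all 4 groups in the fit, a replicate block, rescaling to genes outside the muscle lists and without IMPA2 or IMPA4, with adjusted p from 0.0110 to 0.0494. With quantile normalization it changed by -0.30 (SE 0.066, adjusted p = 0.00291), so its direction depended on the scaling. COL1A1 changed by 0.068 (SE 0.10, adjusted p = 0.591) and COL1A2 by 0.11 (SE 0.034, adjusted p = 0.0173), a call that was lost with all 4 groups in the fit (adjusted p = 0.258) and with no filter on low values (adjusted p = 0.1105). LOX (lysyl oxidase) fell from 236 ± 11.5 to 171 ± 8.797 FPKM. With the mapped share as a covariate 2 of these collagen and assembly genes rose and 3 fell, with a median of -0.22. COL5A3 then changed by 0.11 (SE 0.23, adjusted p = 0.836) and PLOD2 by 0.87 (SE 0.20, adjusted p = 0.0326). In the basement membrane HSPG2 (perlecan) fell from 10.7 ± 2.84 to 4.46 ± 0.528 FPKM and NID2 (nidogen 2) from 17.5 ± 3.58 to 10.2 ± 1.01 FPKM. Of the proteases and inhibitors, TIMP1 rose from 509 ± 32.2 to 933 ± 51.03 FPKM, and ADAMTS1, a protease of versican, was at 44.9, 40.98, 44.7, 46.2 and 42.9 FPKM in IMPA1 to IMPA5 and 16.8, 16.3, 14.8, 15.7 and 16.2 FPKM in IMA1 to IMA5, without overlap. Of 22 integrin and focal adhesion genes 0 rose and 14 fell, led by ITGB5 (-0.64). Of 15 smooth muscle contractile genes 3 rose and 8 fell, among them ACTA2 (-0.42) and TAGLN (-0.22), markers of myofibroblasts. Both turned with the mapped share as a covariate, ACTA2 to 0.61 (SE 0.15, adjusted p = 0.0478) and TAGLN to 0.47 (SE 0.11, adjusted p = 0.0456).

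Among the TGF-beta genes 7 of 26 rose and 8 fell. TGFB3 was at 8.79, 8.62, 9.89, 8.25 and 11.5 FPKM in IMPA1 to IMPA5 and 24.9, 27.6, 30.2, 27.7 and 30.2 FPKM in IMA1 to IMA5, with a change of 1.49 (SE 0.083, adjusted p = 1.11e-07) and no overlap, while LTBP3, which holds latent TGF-beta in the matrix, fell from 7.04 ± 0.523 to 3.74 ± 0.2796 FPKM. In the WNT list 7 of 18 rose and 8 fell. WNT5A, a ligand of the noncanonical branch, was at 8.63, 9.91, 5.12, 10.3 and 2.61 FPKM in IMPA1 to IMPA5 and 20.7, 19.8, 16.7, 20.8 and 20.1 FPKM in IMA1 to IMA5, with a change of 1.43 (SE 0.27, adjusted p = 9.49e-04), and of 1.16 (SE 0.16, adjusted p = 1.54e-04) without IMPA5. WNT11 rose from 0.226 ± 0.0615 to 2.01 ± 0.447 FPKM, and the antagonist gene SFRP4 fell from 42.6 ± 2.16 to 23.9 ± 2.76 FPKM. In the BMP list 1 of 18 rose and 6 fell, with BMP4 (-0.53) and its antagonist GREM1 (-0.51) both down. BMP4 was highest in IMA3 among the IMA libraries, and with the mapped share as a covariate it changed by 1.19 (SE 0.20, adjusted p = 0.00828), so that its direction turned.

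Notch receptors fell, NOTCH3 from 2.97 ± 0.189 to 1.46 ± 0.193 FPKM and NOTCH2 from 16.5 ± 3.63 to 10.2 ± 0.807 FPKM, and in the list 3 of 12 tested members rose and 6 fell, with a median log2 change of -0.36. HES1, the classic Notch target, went the other way and rose from 8.45 ± 0.9900 to 15.2 ± 1.44 FPKM. Among the growth factor genes of the FGF, PDGF and EGF pathways 8 of 24 rose and 7 fell. HBEGF, a ligand of the EGF receptor, rose from 1.18 ± 0.169 to 4.22 ± 0.256 FPKM. FGFR4, a receptor of muscle progenitors, was at 9.78, 10.2, 11.4, 9.38 and 11.1 FPKM in IMPA1 to IMPA5 and 4.08, 4.13, 4.66, 5.09 and 5.12 FPKM in IMA1 to IMA5, lower in each IMA library, with a change of -1.02 (SE 0.071, adjusted p = 6.90e-07). In the insulin and IGF list 5 of 25 rose and 6 fell. IGFBP6, a binding protein with a preference for IGF2, was at 1807, 1595, 1691, 1608 and 1729 FPKM in IMPA1 to IMPA5 and 782, 692, 722, 699 and 729 FPKM in IMA1 to IMA5, without overlap, and IGFBP2 fell from 1934 ± 111 to 1199.8 ± 101 FPKM. TRIM63 (1.31) and FBXO32 (0.82), the ubiquitin ligases of muscle atrophy that insulin signalling represses, both rose, and IGF1 changed by -0.0039 (SE 0.060, adjusted p = 0.9604) and did not pass. Of the immediate early genes, EGR1 fell from 5.500 ± 1.21 to 1.57 ± 0.308 FPKM, and IER3 rose from 70.4 ± 20.6 to 191 ± 16.8 FPKM. ANKRD1, a target of the YAP coactivator that muscle also makes, rose from 498 ± 43.9 to 1068 ± 57.3 FPKM.

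The 10 genes that fell most among those without overlap were APOA1 (-2.21), MX1 (-1.86), ECM2 (-1.83), HMOX1 (-1.80), GAS1 (-1.46), CCDC69 (-1.44), ADAMTS1 (-1.41), OGN (-1.36), S100G (-1.36) and EGR1 (-1.33). With the mapped share as a covariate, APOA1 (-2.48), HMOX1 (-3.02), ADAMTS1 (-1.45) and EGR1 (-1.95) still passed. MX1 (-2.38), S100G (-1.79), CCDC69 (-0.76), GAS1 (-0.72), ECM2 (-0.21) and OGN (-0.12) kept their sign without passing. APOA1, the apolipoprotein of HDL, was at 25.3, 23.5, 20.5, 22.8 and 24.7 FPKM in IMPA1 to IMPA5 and 4.62, 3.98, 3.41, 4.75 and 4.74 FPKM in IMA1 to IMA5, with a change of -2.21 (SE 0.082, adjusted p = 4.01e-09). GAS1, a membrane protein first found in growth-arrested cells, was at 53.8, 49.1, 56.5, 49.9 and 62.1 FPKM in IMPA1 to IMPA5 and 7.87, 22.8, 22.1, 23.5 and 26.2 FPKM in IMA1 to IMA5, and IMA1 was far below the other IMA libraries. S100G, a calcium-binding protein, fell from 15.2 ± 1.93 to 5.39 ± 1.24 FPKM, and CCDC69, of which little is known, from 6.397 ± 1.15 to 1.71 ± 0.106 FPKM. These genes were chosen for the size of their intramuscular change, and the difference from the subcutaneous change passed for 7 of the 10. For APOA1, ECM2, CCDC69, ADAMTS1, OGN and S100G the intramuscular change was the lower, with differences from -1.08 for CCDC69 to -2.49 for APOA1, and for EGR1 it was the higher by 0.56. The subcutaneous changes of MX1, HMOX1 and GAS1 were -2.20, -1.69 and -1.70, and their differences of 0.34 (SE 0.21), -0.11 (SE 0.16) and 0.24 (SE 0.28) did not pass.

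Against the subcutaneous cells, several gene lists contrasted, among them those of muscle, of DNA replication and of mitosis. Over all mRNA genes tested, the change differed between the cell types for 6242 of 11382 (54.8%). It differed for 38 of 38 genes of DNA replication and 41 of 41 of mitosis, with the intramuscular change the lower in each. The median change of the replication genes was -0.39 in intramuscular and 0.97 in subcutaneous cells, and that of the mitosis genes -0.16 and 1.60. For sarcomere genes 45 of 49 differed (1.61 and -0.033) and for excitation-contraction coupling 18 of 19 (1.20 and -0.0041), each with the intramuscular change higher. Sarcomere genes were low in the subcutaneous cells, with mean log2(FPKM + 1) of 1.05 in SPA and 0.91 in SA. All 24 glycolysis genes differed too, 22 of them with the intramuscular change higher, and the medians were 0.29 and -0.47. For hypoxia genes 16 of 18 differed (0.39 and -0.38), for cytosolic ribosomal proteins 67 of 75 (-0.11 and 0.21) and for aminoacyl tRNA synthetases 19 of 20 (-0.26 and 0.29). Cholesterol synthesis genes had similar medians of -0.57 and -0.50, and 10 of 22 differed (45.5%). Interferon-stimulated genes had medians of -0.51 and -0.68, and 10 of 21 differed. Genes of the fatty acid response and lipid droplets had medians of 0.20 and -0.020. Of these, 9 of 15 differed (60%), with the intramuscular change the higher in each. These list counts were chosen after the values had been seen. By the study's alignment table, the mapped share differed more between the stages in intramuscular than in subcutaneous cells. It was not entered in this contrast, and its part was not tested. With it as a covariate, the intramuscular medians were -0.15 for replication, -0.035 for mitosis, -0.21 for glycolysis and -0.20 for hypoxia. They were -0.12 for ribosomal proteins, 0.086 for tRNA synthetases, 0.065 for cholesterol and -1.13 for interferon genes. For fatty acid response, sarcomere and coupling genes they were 0.035, 1.77 and 1.57.

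**Figure D5:**
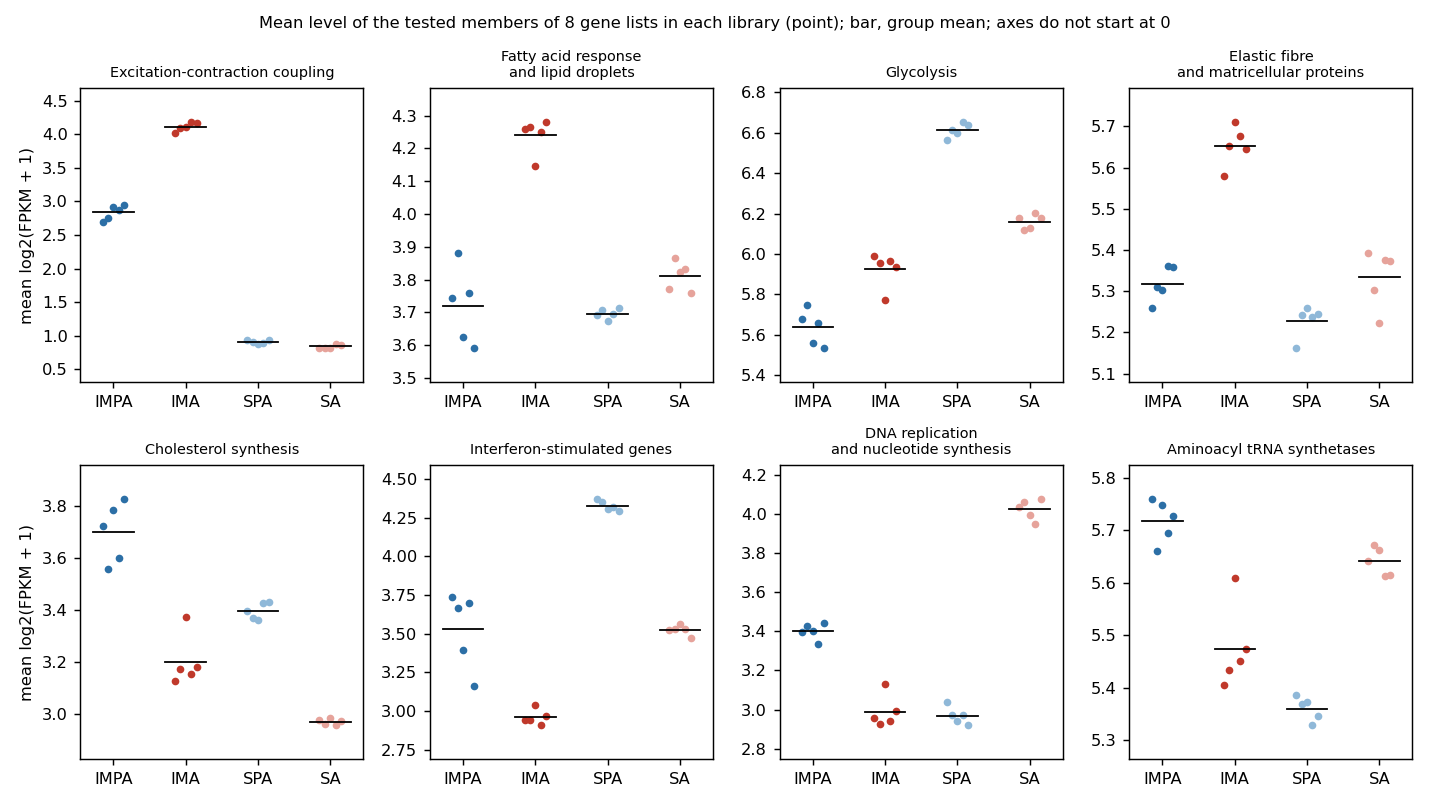
Mean log2(FPKM + 1) (y axes, not starting at 0) of the tested members of 8 gene lists in each library, for IMPA, IMA, SPA and SA, with group means as bars. Replication genes fall from 3.400 to 2.99 in the intramuscular cells and rise from 2.97 to 4.02 in the subcutaneous cells, glycolysis genes move the opposite way, and IMA3 lies nearest to IMPA for glycolysis, cholesterol synthesis, replication and tRNA synthetases.

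Common reference genes were not steady. Of 15 listed, 2 rose and 9 fell. ACTB (beta-actin) was at 622, 614, 620.5, 622 and 650.1 FPKM in IMPA1 to IMPA5 and 397, 428, 469, 437 and 444 FPKM in IMA1 to IMA5, a change of -0.52 (SE 0.042, adjusted p = 1.91e-06) without overlap, and GAPDH moved the other way, as given above. UXT, the reference of the qPCR in this study, changed by -0.22 (SE 0.070, adjusted p = 0.0189). The call was lost with quantile normalization (adjusted p = 0.0842) and upper-quartile scaling (adjusted p = 0.0503), and in the fit with the mapped share the change was 0.15 (SE 0.23, adjusted p = 0.775).

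Of the 1755 lncRNAs tested, 214 rose (12.2%) and 417 fell (23.8%), and 38 (2.17%) and 15 (0.855%) did so by at least 1. The groups did not overlap for 143 higher (8.15%) and 222 lower lncRNAs (12.6%). Annotated and newly assembled lncRNAs differed in balance. Of 472 annotated transcripts 101 rose (21.4%) and 87 fell (18.4%), whereas of 1283 new transcripts 113 rose (8.81%) and 330 fell (25.7%). Most of the latter were intronic lncRNAs, of which 74 of 1104 rose (6.7%) and 292 fell (26.4%). New antisense lncRNAs had the largest share that rose, 14 of 45 (31.1%). An intronic transcript and the pre-mRNA of its host gene can share reads, and new antisense models rest on the strand of the library.

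Among the annotated lncRNAs without overlap between the groups, XR_001297224.2 rose most. It was at 4.65, 4.62, 4.802, 4.59 and 5.19 FPKM in IMPA1 to IMPA5 and 23.4, 25.5, 22.9, 24.2 and 24.4 FPKM in IMA1 to IMA5, a change of 2.12 (SE 0.043, adjusted p = 3.24e-11). In the RefSeq gene order of the ARS1.2 assembly its gene, LOC106503532, overlaps MIB1, a ubiquitin ligase of Notch ligands that changed by -0.14. XR_001918022.1 was at 0.3404, 0.664, 0.483, 0.414 and 0.423 FPKM in IMPA1 to IMPA5 and 3.92, 3.84, 3.79, 4.18 and 4.39 FPKM in IMA1 to IMA5, and the next protein-coding gene after its own, LOC108635993, in that order is MYF6, which also rose. XR_001918116.1 rose from 0.182 ± 0.111 to 3.16 ± 0.869 FPKM. All 3 had been chosen among lncRNAs without overlap between the groups, and all 3 averaged under 1 FPKM in both subcutaneous groups.

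Among the new lncRNAs, LNC_011589 was at 2.28, 0.644, 2.94, 0.841 and 0.491 FPKM in IMPA1 to IMPA5 and 9.06, 20.4, 11.8, 10.9 and 10.9 FPKM in IMA1 to IMA5, LNC_003936 rose from 6.57 ± 4.597 to 36.9 ± 14.8 FPKM and LNC_002438 from 1.697 ± 0.929 to 11.9 ± 1.79 FPKM. These 3 had larger spreads than the annotated ones, with SE of the log2 change from 0.277 to 0.398. The lncRNAs that fell without overlap were led by LNC_011844, at 6.78, 8.17, 8.02, 2.48 and 5.19 FPKM in IMPA1 to IMPA5 and 0, 0.00353, 0.978, 0.0123 and 0 FPKM in IMA1 to IMA5, which was listed at 0 in IMA1 and IMA5. LNC_002311 was the most abundant of the group, at 92.2, 74.4, 90.3, 78.6 and 80.2 FPKM in IMPA1 to IMPA5 and 32.8, 27.1, 33.8, 24.9 and 34.1 FPKM in IMA1 to IMA5, a change of -1.42 (SE 0.094, adjusted p = 4.57e-07), and LNC_009027 fell from 19.9 ± 6.41 to 6.08 ± 5.19 FPKM, with the widest spread in IMA. Of the annotated lncRNAs, XR_001917680.1 was at 7.55, 7.01, 8.81, 7.201 and 6.04 FPKM in IMPA1 to IMPA5 and 0, 0, 5.300, 0 and 5.64 FPKM in IMA1 to IMA5, so that it was listed at 0 in 3 IMA libraries and close to IMPA in the other 2. XR_001917653.1 fell by 0.89 and XR_001917749.1 by 0.78.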

How the data were processed

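The deposited tables hold FPKM per transcript. Per the study's methods and the submitters' processing notes, the authors aligned strand-specific paired reads to goat ARS1 with HISAT2 2.0.4, assembled transcripts with Scripture and Cufflinks, and computed FPKM with StringTie 1.3.1, Ballgown and Cuffdiff, one column per library. GATK 2.6-5 is also named. FPKM depends on the mapped total, so a few very abundant transcripts shift all other values. Here, mRNA transcripts were summed by symbol (a mean of at least 1 FPKM over 10 libraries was required), and log2(FPKM + 1) was compared between 5 IMA and 5 IMPA libraries with limma 3.58.1 in R 4.3.3 (moderated test with variance trend, two-sided, Benjamini-Hochberg over 13137 mRNA genes and lncRNAs, threshold 0.05). The subcutaneous contrast used the interaction over 20 libraries. Tables and plots were made with Python 3.11.15, pandas 2.3.3, numpy 2.4.6 and matplotlib 3.10.9. The scripts were tested on simulated data. The comparison and the 58 gene lists were chosen with earlier results of these data known. Text names, outside the muscle lists, the 10 largest changes in each direction without overlap (no LOC symbols), and in each list up to 4 largest changes, preset key members and the largest change against the majority. It also names 3 lncRNAs per class and direction, again the largest changes without overlap. For CCL20, CEBPD, CFD, EBF1, G0S2, LEP, PLIN4 and SOD2 the choice came after seeing their values. Alternatives covered scaling, filters, pseudocount, transcript choice, left-out replicates, a replicate block and the mapped share taken from the study's alignment table. Of the 20593 mRNA gene identifiers 19643 matched RefSeq (ARS1.2), used for names and gene order only. No per-sample column was left unused (0). Some genes that the naming rule would pick are not reported here.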

Additional observations from a re-analysis of the deposited data

Results flagged for a closer look

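Among 408 groups of 5 libraries, the named genes and lncRNAs in IMPA and in IMA apart, 1 library lay so far from the others that its gap to the nearest exceeded 0.71 of the range of the group on the log2 scale in 29. Chance alone gives about 1 in 20 such groups. IMA3 accounted for 18 of them. IMA3 was set apart as the highest of its group in MX1 (9.12 against 6.39 to 6.88 FPKM), LSS (3.48 against 2.45 to 2.697 FPKM), MSMO1 (34.2 against 22.9 to 25.1 FPKM), DDX58 (4.52 against 3.54 to 3.73 FPKM), ASPN (6.296 against 4.22 to 4.69 FPKM), BMP4 (7.45 against 4.298 to 4.89 FPKM) and LNC_011844 (0.978 against 0 to 0.0123 FPKM). IMA3 was the lowest in CA3 (24.4 against 41.9 to 48.7 FPKM), S100G (3.21 against 5.55 to 6.28 FPKM), SLC16A3 (11.8 against 17.4 to 20.1 FPKM), SLC2A3 (59.6 against 101 to 112 FPKM), GAPDH (1155 against 1304 to 1336 FPKM), PKM (411 against 446 to 453 FPKM), ADM (87.1 against 132 to 148 FPKM), WNT5A (16.8 against 19.8 to 20.8 FPKM), IER3 (161 against 193 to 202 FPKM), FTL (552 against 724 to 774 FPKM) and MEOX1 (4.299 against 6.84 to 8.07 FPKM).

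The other libraries stood apart more rarely. IMPA5 was set apart as the highest of its group in CD36 (0.4696 against 0.158 to 0.235 FPKM) and ACTB (650.1 against 614 to 622 FPKM). IMPA5 was the lowest in CCL20 (3.81 against 103 to 206 FPKM) and LNC_002438 (0.05903 against 1.86 to 2.27 FPKM). IMA1 was set apart as the highest of its group in CCDC69 (1.89 against 1.63 to 1.703 FPKM). IMA1 was the lowest in GAS1 (7.87 against 22.1 to 26.2 FPKM). IMA2 was set apart as the highest of its group in CD44 (106 against 96.8 to 97.98 FPKM). IMA2 was the lowest in ECHS1 (45.6 against 49.96 to 51.8 FPKM). IMPA3 was set apart as the highest of its group in PSMC5 (26.6 against 23.1 to 23.6 FPKM). IMPA4 was set apart as the highest of its group in ACACA (5.88 against 4.88 to 5.14 FPKM) and XR_001917749.1 (4.43 against 2.53 to 2.94 FPKM). For all 11382 mRNA genes the same measure set IMA3 apart in 356 (3.13%) and the other libraries in 67 to 225.

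The intramuscular change differed from the subcutaneous change, by a test of the difference itself (interaction of stage and cell type in limma over 20 libraries), for 17 of 20 genes. These had been chosen for the size of their intramuscular change, and 9 of the 10 that rose were under 1 FPKM in both subcutaneous groups, so for those the difference largely restates the intramuscular change. The difference of log2 changes, intramuscular minus subcutaneous, was above 0 for MRLN (3.38), FHL1 (3.20), CTXN3 (2.98), DHRS7C (2.91), ATP1B4 (2.86), S100A2 (3.89), APOBEC2 (2.64), GJD4 (2.51), HSPB3 (2.54), CA3 (2.07) and EGR1 (0.56) and below 0 for APOA1 (-2.49), ECM2 (-1.09), CCDC69 (-1.08), ADAMTS1 (-1.52), OGN (-1.11) and S100G (-1.35). Over all tested mRNA genes this difference passed for 54.8%. The mapped share of the reads was not entered in this fit.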

How the results depend on the processing

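The numbers of called genes depended most on the mapped share of the reads. With it as a covariate, 427 mRNA genes were higher and 202 lower in IMA, 28 lncRNAs were higher and 8 lower, and 89 mRNA genes fell by at least 1. Of 189 named genes and lncRNAs that had passed, 67 passed with the same sign, 80 kept their sign without passing and 42 changed sign, to above 0 for FABP5 (0.029), MEST (1.01), EBP (0.10), MSMO1 (0.29), HMGCS1 (0.33), SCD (0.20), TYMS (0.13), THBS1 (0.081), ASPN (0.88), BMP4 (1.19), GREM1 (0.36), PSAT1 (0.25), PHGDH (0.033), UXT (0.15), ACTA2 (0.61), TAGLN (0.47) and XR_001917680.1 (0.49) and to below 0 for MYF5 (-0.59), ANGPTL4 (-0.59), ECI1 (-0.25), SLC16A3 (-0.92), SLC2A3 (-0.52), LDH-A (-0.074), GAPDH (-0.26), EGLN3 (-0.13), VEGFA (-0.93), CCL5 (-1.65), CXCL8 (-3.50), IL1A (-0.21), ELN (-0.36), BGN (-0.034), WNT5A (-0.84), IER3 (-0.052), FTL (-0.61), G0S2 (-0.27), IL11 (-0.46), ERO1A (-0.17), IFIT2 (-0.32), CD44 (-0.40), MEOX1 (-0.47), RORA (-0.021) and GABARAPL1 (-0.072). Only BMP4, ACTA2 and TAGLN passed with the changed sign. Some that kept their sign without passing were near 0, among them PLIN2 (0.035), LSS (-0.076), COL5A3 (0.11), OGN (-0.12), RRM2 (-0.13) and ECM2 (-0.21). Of the 15 named genes that had not passed, 10 changed sign too (PAX7 -0.52, CPT1A -0.65, FADS2 -0.71, TOP2A -0.078, IL6 -2.06, CCL20 -2.67, COL1A1 -0.31, COL3A1 -0.82, LUM -0.64 and IGF1 0.30), and none passed. With quantile normalization COL3A1 changed sign (-0.30). A mean of at least 0.1 FPKM gave 744 and 1047 lncRNAs, and no filter 699 and 945, with more transcripts tested. Genes that fell by at least 1 numbered 88 with the most abundant transcript of each gene and 99 with a pseudocount of 0.1, against 46. Leaving out each replicate in turn gave 2060 to 2214 mRNA genes higher and 4138 to 4549 lower, 192 to 219 and 345 to 448 lncRNAs, and 231 to 243 and 39 to 50 mRNA genes past 1. With upper-quartile scaling, rescaling to mRNA genes outside the muscle lists or quantile normalization, 2262, 2577 and 2741 mRNA genes were higher and 4146, 3883 and 3688 lower. All 4 groups in the fit, no variance trend and adjustment within each class left the counts within 1.5 times. Outside the covariate, 0 to 9 named genes lost the call under a single alternative, most with the most abundant transcript of each gene. Calls were also gained. CPT1A passed as a rise with all 4 groups in the fit, quantile normalization, rescaling and without IMPA2. CEBPB passed as a fall with all 4 groups and without IMA1 or IMPA5. ACACA passed as a fall with all 4 groups and CDK1 as a rise with quantile normalization. The gained calls of COL3A1 and SOD2 are given above.

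The replicate numbers were not used as pairs in the main fit, and whether same-numbered libraries share a goat is not known. Deviations of same-numbered IMPA and IMA libraries from their group means correlated at -0.0087, 0.0771, 0.1219, 0.0963 and 0.0244 across genes. Of the 5 IMA libraries, 3 correlated best with their own number. These weak correlations do not decide whether the numbers pair the samples. With the replicate number as a block, 2223 mRNA genes rose and 4386 fell, 220 and 424 lncRNAs did, 233 and 46 mRNA genes did so by at least 1, and 17 of 20 differences from the subcutaneous change passed.

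The files hold FPKM without counts, so the read number behind each value is not known and no counting interval is given. Genes with a mean under 1 FPKM were not tested.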

Other observations

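Stromal and progenitor surface genes split. In their list 3 of 15 tested genes rose and 4 fell. DPP4, which marks interstitial progenitors of fat, fell from 10.1 ± 0.824 to 4.55 ± 0.352 FPKM (SD, n = 5), and PDGFRA, the receptor that defines fibro-adipogenic progenitors, from 148 ± 14.97 to 107 ± 6.12 FPKM. CD44, the hyaluronan receptor, rose from 59.7 ± 13.4 to 98.95 ± 4.03 FPKM. Among HOX and other positional genes 2 of 20 tested genes rose and 4 fell, and the paralogous homeobox genes MEOX1 and MEOX2 went opposite ways, MEOX1 from 2.95 ± 0.642 to 6.87 ± 1.51 FPKM and MEOX2 from 18.8 ± 1.11 to 11.2 ± 0.664 FPKM. Of the nuclear receptor and clock genes 6 of 25 rose and 6 fell, with BHLHE40, a repressor of the clock, up from 12.5 ± 2.08 to 24.4 ± 3.04 FPKM and RORA up from 2.88 ± 0.512 to 5.08 ± 0.358 FPKM.

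Genes of protein degradation and mitochondrial translation fell about as often as all mRNA genes (39.6%). In the lysosome and autophagy list 7 of 28 tested genes rose and 12 fell. LIPA, the acid lipase that frees cholesterol from its esters, fell from 46.8 ± 2.79 to 28.9 ± 0.946 FPKM, whereas GABARAPL1, an autophagosome protein, rose from 22.4 ± 1.601 to 33.8 ± 3.02 FPKM. Of 31 proteasome genes 3 rose and 13 fell, led by PSMC5 (24.1 ± 1.398 to 15.1 ± 2.44 FPKM), and of 73 mitochondrial ribosomal protein genes 6 rose and 29 fell, led by MRPL27 (33.3 ± 1.54 to 20.5 ± 2.49 FPKM). In the list of imprinted growth genes 2 of 10 tested genes rose and 4 fell, and NNAT (neuronatin), a membrane proteolipid, rose from 1.74 ± 0.237 to 3.98 ± 0.524 FPKM. With the mapped share as a covariate, at most 1 gene of the stromal, positional, clock and lysosome lists rose and at most 2 fell.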
